A study of Mus musculus and Homo sapiens with 10 samples.

Results

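The nuclear genes of the mitochondrial respiratory chain were examined for DNA double-strand breaks in mouse jejunal enterocytes. They were chosen by symbol alone, as GRCm38 RefSeq protein-coding genes of chromosomes 1 to 19 that begin with Nduf followed by a, b, c, s or v and a digit, are Sdha, Sdhb, Sdhc or Sdhd, or begin with Uqcr, with Cox and a digit from 4 to 8, or with Atp5. The rule found 84 of the 20665 protein-coding genes on these chromosomes, and of 21887 when X and Y are included. By symbol, 38 belong to complex I, 4 to complex II, 8 to complex III, 17 to complex IV and 17 to complex V. A further 3 genes that match by symbol lie on X and were left out. The rule itself uses no break measurement.

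The respiratory chain passes electrons from NADH (complex I, the Nduf genes) and succinate (complex II, the Sdh genes) through complex III (Uqcr) to oxygen at complex IV, cytochrome c oxidase (Cox). The protons pumped on the way drive ATP synthase, complex V (Atp5). Most subunits are encoded in the nucleus and expressed in nearly every cell, and absorptive enterocytes depend on them to power nutrient transport. A few subunits exist as isoforms that are known mainly from heart and skeletal muscle, lung or testis.

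In-suspension BLISS ligates an adapter to blunted DNA ends in lysed cells or nuclei, and every sequenced end gives the position of a break. The 6 enterocyte libraries came from jejunum and were sorted as Cd73 negative, Cd73 mid or Cd73 high, with 2 libraries (M1 and M2) in each gate. Cd73 is the ectonucleotidase encoded by Nt5e, which is known to be highest in enterocytes of the villus tip. The labels give no strain, age or treatment and do not say whether M1 and M2 are separate mice, so p-values reflect nothing beyond the scatter among the 6 libraries, and that scatter may be technical.

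The negative libraries held 13043514 and 12585228 break ends on the main chromosomes, the mid libraries 4757961 and 5160171, and the high libraries 1522615 and 1272771. Depth and gate cannot be told apart in these libraries. Thinning to equal depth evened the totals, but it cannot remove other differences in how the libraries were made. A chain gene had a median of 122 and 137 break ends in the negative libraries, 38.5 and 53 in the mid libraries, and 11 and 10 in the high libraries, so that a single gene is least precise in the high gate. Break ends in DNA do not measure RNA, and the cell type in the labels could not be checked by them. The gene starts of 11 enterocyte marker genes had a median density of 1.11 break ends per kb per 1000000 break ends of the library (EPKM here). This was lower than the 1.41 EPKM of other genes, and 4 of the 11 lay above genes of like length. Over the gene body with 1 kb on each side 9 of 12 did, and in the gene interior 7 of 8. Most marker lists of other cells had median starts from 0.279 (Paneth) to 0.853 (enteroendocrine), but the stem list had 2.78.

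Over the gene body with 1 kb on each side, called the window here, the chain genes carried more break ends than genes of like length. Their median density was 0.961 EPKM (mean of the 6 libraries), against 0.579 for the other 20581 autosomal genes. Chain genes are short, with a median length of 7228 bp against 17622 bp, so density was also compared within length groups. Set against genes in the same of 10 length groups, the median density ratio was 1.32 and 1.28 in the negative libraries, 1.21 and 1.21 in the mid libraries, and 1.12 and 1.17 in the high libraries. It was thus above 1 in all 6 libraries. The order of the gates was not kept with each position counted once, where the ratio was 1.18, 1.15, 1.12, 1.11, 1.11 and 1.21 from negative M1 to high M2. Of the 84 genes, 63 lay above the median of their length group.

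The surroundings differed less than the genes themselves. From 10 to 50 kb outside the gene body, the median density was 0.561 for chain genes and 0.497 for other genes. The window was denser than these surroundings in 78 of the 84 chain genes, with a median ratio of 1.67, and in 13376 of the 20581 other genes, with a median ratio of 1.17. These ratios were not matched for length, and in shorter genes the start makes up more of the window. The windows of 51 chain genes, 60.7%, overlap another protein-coding gene, against 32.4% of other genes. The files give no strand, so break ends in a shared stretch cannot be assigned to either gene. Among genes that overlap no other, 33 chain genes had a median window density of 0.962 and the other 13914 had 0.519, also not matched for length.

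The excess lay at the gene start. For the 67 chain genes whose start is given in the RefSeq promoter table, the median density within 1 kb of the start was 2.44 EPKM, against 1.33 for genes of like length, and 62 of the 67 lay above their length group. In the interior of the gene, from 1 kb after the start to 1 kb before the end, the 48 genes long enough had a median of 0.531 against 0.539, and 24 of 48 lay above. Within 1 kb of the gene end the median was 0.460 against 0.456, with 23 of 48 above. Chain genes thus differed from genes of like length around the start, while interiors and ends were split evenly about the level of such genes.

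**Figure D1:**
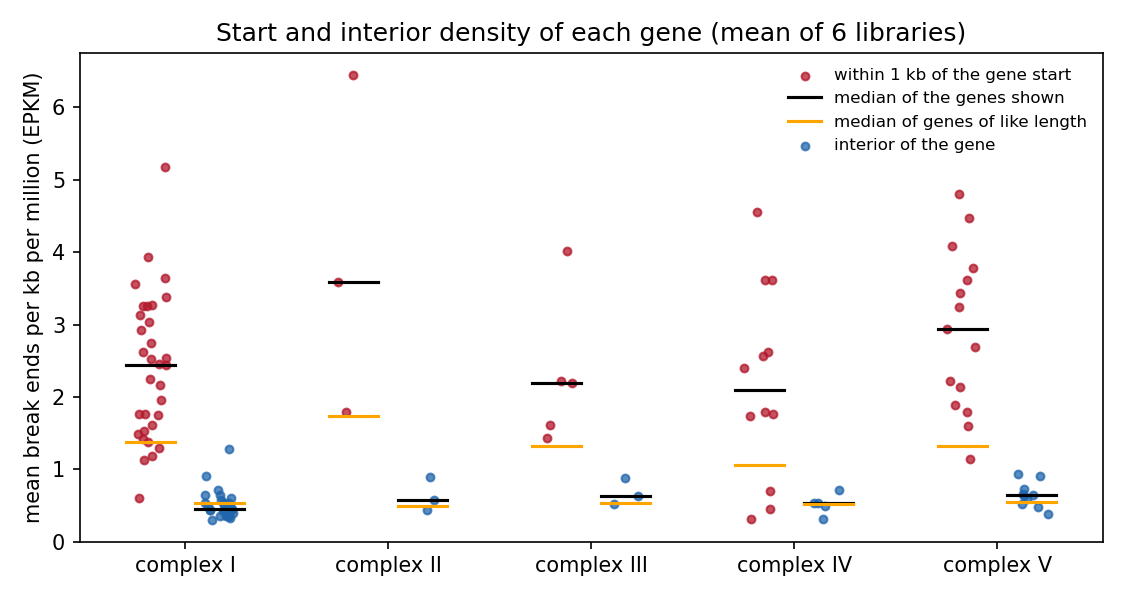
Mean density over 6 libraries (EPKM, vertical axis) of each chain gene, by complex: red points lie within 1 kb of the gene start, blue points in the gene interior. Black bars are medians of the genes shown and orange bars medians of genes of like length. Start medians lie above those of like length in every complex. The interior median is below it in complex I (0.460 against 0.539) and above it in complex V (0.643 against 0.545), and Sdha has the highest start at 6.44.

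Around the start, the profile of 54 chain genes of at least 3 kb, without the tissue-restricted isoforms, peaked in the first 100 bp downstream with 9.01 EPKM (range over the 6 libraries 6.34 to 12.3). Genes weighted to the same lengths had 3.63 (2.76 to 4.71) there. In the 100 bp just upstream the values were 6.90 and 3.36. Both profiles dipped between 100 and 199 bp, to 3.01 and 1.83, and rose again between 200 and 299 bp, to 4.42 and 2.20. From 1000 to 1099 bp they were at 0.851 and 0.973. The shape was shared by the other genes, and in the 100 bp on either side of the start the chain genes were higher in each of the 6 libraries.

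**Figure D2:**
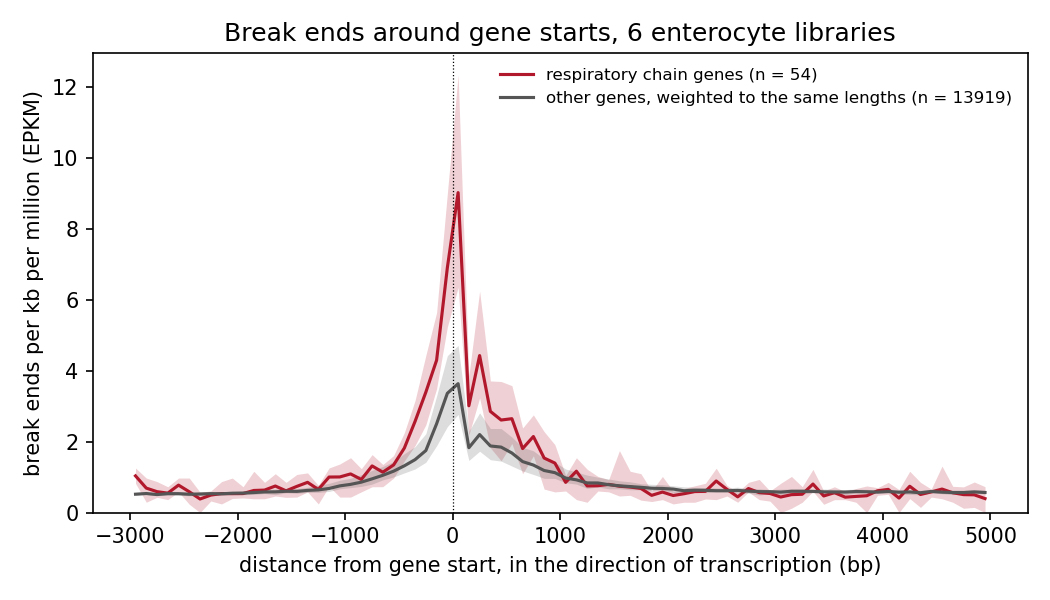
Break end density (EPKM) in bins of 100 bp, from upstream to downstream of the gene start (horizontal axis in bp, downstream to the right). Red is the mean of the 6 libraries over 54 chain genes and grey the mean over 13919 other genes weighted to the same lengths; bands span the lowest and highest library. The chain genes peak at 9.01 and the other genes at 3.63 in the bin just after the start.

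Another gene starts within 1 kb of the start of 19 of the 67 chain genes, 28.4%, against 9.92% of other genes. Such neighbours include Ccdc127 at 77 bp from the start of Sdha, Tssk6 at 164 bp from Ndufa13, Kin at 102 bp from Atp5c1 and Gabpa, which encodes a factor known to bind promoters of mitochondrial genes, at 501 bp from Atp5j. The 19 shared starts had a median density of 3.28, and the other 48 had 2.22, of which 44 lay above genes of like length. Other genes had 2.74 where starts were shared and 1.23 where they were not.

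Complex II held the highest start. Sdha, the flavoprotein that oxidises succinate (gene 66945, chromosome 13, 74322255 to 74350240, GRCm38.p6), had 150 and 187 break ends within 1 kb of its start in the negative libraries, 43 and 56 in the mid libraries, and 27 and 17 in the high libraries. In EPKM these were 5.75, 7.43, 4.52, 5.42, 8.86 and 6.67, with a mean of 6.44 ± 1.56 (SD, n = 6), above 99.5% of genes of like length. The high gate held the highest value here and the mid gate the lowest. The interior of Sdha was at 0.436, where such genes had 0.500. Sdhd, a membrane anchor, had 3.59 ± 0.767 at its start, shared with Timm8b at 52 bp. Sdhb, the iron-sulfur subunit, had 1.79 ± 0.643, near the 1.73 of its length group.

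The start of Sdha is printed here because it was the densest of the chain genes. Capital letters mark the 14 bases at which break ends were recorded in at least 2 of the 6 libraries. The sequence is RefSeq's (GRCm38.p6), 250 bases before to 50 bases after the annotated start, 5′ to 3′ in the direction of the gene. As the files give no strand of the break end, a marked base can be adjacent to the break rather than at its exact edge.
Sdha, chr13:74350191-74350490, minus strand: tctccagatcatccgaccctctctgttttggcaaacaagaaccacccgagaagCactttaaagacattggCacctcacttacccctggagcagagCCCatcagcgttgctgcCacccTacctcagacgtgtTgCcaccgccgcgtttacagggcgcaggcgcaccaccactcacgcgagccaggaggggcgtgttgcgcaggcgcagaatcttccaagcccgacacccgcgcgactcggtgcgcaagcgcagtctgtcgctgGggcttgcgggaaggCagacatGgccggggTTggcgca
These 300 bases held 49 and 61 break ends in the negative libraries, 18 and 23 in the mid libraries, and 12 and 7 in the high libraries, spread over 48 positions. Of the marked bases, 9 lie before the start and 5 in the first 50 bases of the transcript. The stretch also holds 3 matches to the motif of nuclear respiratory factor 1, described further on.

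Complex I had a median start density of 2.45 over 32 genes, against 1.38 for genes of like length, and 30 lay above. Ndufa13, an accessory subunit also known as GRIM19, had 137 and 172 break ends within 1 kb of its start in the negative libraries, 42 and 78 in the mid libraries, and 13 and 7 in the high libraries. Its density there was 5.18 ± 1.77 (SD, n = 6), while its interior was at 0.400. Of the other genes named here, Ndufa11 had 3.64 ± 0.837, with Vmac starting 63 bp away, and Ndufv1, which binds NADH, had 3.38 ± 0.861. Of the named genes, Ndufa3 was lowest with 1.13 ± 0.489 followed by Ndufa9 with 1.296 ± 0.670, the latter below the 1.82 of its length group. Interiors in complex I were lower than those of like length: the median of 27 genes was 0.460 against 0.539, and 9 of them lay above. Ndufs4, the longest gene of complex I, with a gene body of 100300 bp on chromosome 13, had 2.53 ± 1.31 at its start and 0.440 inside.

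Complex III had a median of 2.20 over the 5 genes with a known start, against 1.33. Uqcrfs1, the Rieske iron-sulfur protein (chromosome 13, 30540312 to 30545316), had 137 and 125 break ends near its start in the negative libraries, 35 and 45 in the mid libraries, and 7 and 9 in the high libraries. It overlaps no other gene, and its start density was 4.01 ± 1.08 (SD, n = 6), above 94.4% of genes of like length. Uqcrc1, a core subunit, had 2.22 ± 0.816, and Uqcr11, a small subunit, 1.44 ± 0.392. The starts of Uqcrc2 and Uqcrq are not in the table; their windows had 0.641, the lowest of the complex, and 1.42.

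Complex V had a median of 2.93 over 15 genes, against 1.33, and 14 lay above. Atp5j, coupling factor 6, had 142 and 127 break ends near its start in the negative libraries, 34 and 54 in the mid libraries, and 17 and 10 in the high libraries, a density of 4.80 ± 0.841 (SD, n = 6). Atp5c1, the central shaft subunit gamma, was at 4.09 ± 0.941, Atp5pb, in the peripheral stalk, at 3.78 ± 0.759, and Atp5d, subunit delta, at 3.25 ± 1.07. Only Atp5j2, subunit f, with 1.14 ± 0.790, lay below its length group, at 1.44. The ring of c subunits is encoded by 3 genes for the same mature protein. Atp5g2 had 3.43 ± 0.853, Atp5g3 2.22 ± 0.878 and Atp5g1 1.89 ± 0.467, so that Atp5g2 was highest on average, although the ranges overlap between libraries.

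Complex IV had the lowest median start of the complexes, 2.10 over 12 genes against 1.07, and its members spanned from 0.314 to 4.56. These genes are short, and 4 of the 12 are tissue-restricted isoforms. By rank complex IV was not lowest: its median start lay above 78.1% of genes of like length. That share was 71.1% in complex I, 65.0% in complex III, 87.7% in complex V and 91.6% in complex II. Cox5a, which is present in all cells (chromosome 9, 57517328 to 57532427), had 138 and 150 break ends near its start in the negative libraries, 35 and 54 in the mid libraries, and 10 and 10 in the high libraries. Its density was 4.56 ± 1.07 (SD, n = 6), and it overlaps no other gene. Cox7c had 2.62 ± 1.12, Cox5b 2.57 ± 0.833 and Cox6a1 2.40 ± 0.477. At the other end, Cox7b2, a testis isoform in a gene of 105383 bp on chromosome 5, had 6, 5, 3, 5, 2 and 0 break ends near its start in the 6 libraries, ordered from negative M1 to high M2. Its density of 0.314 ± 0.230 was the lowest start of all chain genes and above 6.73% of genes of like length.

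The tissue-restricted isoforms could be set beside their widely expressed partners. Cox7a2, found in most tissues, had 109 and 114 break ends near its start in the negative libraries, 23 and 48 in the mid libraries, and 5 and 11 in the high libraries. Cox7a1, the heart and skeletal muscle isoform, had 27, 22, 5, 8, 2 and 1 in the same order. Cox7a2 was higher in 6 of 6 libraries, with 3.62 ± 1.27 against 0.710 ± 0.234, a ratio of 5.10. Over whole windows the pair had 0.885 ± 0.109 and 0.821 ± 0.210, a ratio of 1.08, with Cox7a2 higher in 5 of 6 libraries. These windows overlap Tmem30a and Capns1. The tabled start of Cox7a2, at 79759853, lies inside its gene body (79755241 to 79771422), so its window also holds gene body upstream of that start. Cox8a, the widely expressed partner, had 55, 59, 17, 18, 5 and 2 break ends near its start and the muscle isoform Cox8b 11, 12, 9, 9, 0 and 0. Cox8a was also higher in 6 of 6 libraries, with 1.73 ± 0.533 against 0.452 ± 0.407, a ratio of 3.83, and over whole windows it had 1.88 times the density of Cox8b, which overlaps Psmd13. For these pairs no exact test was made, since the 6 libraries span 3 gates and the genes differ in length. By rank among genes of like length, the starts of Cox7a2 and Cox7a1 lay above 90.6% and 40.3%. Those of Cox8a and Cox8b lay above 63.2% and 69.5%, so that Cox8a was not higher by this measure.

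The promoters of both pairs are shown because none of the 4 starts has another known start within 1 kb and these pairs had the larger ratios. Capitals again mark bases with break ends in at least 2 libraries, in RefSeq sequence of GRCm38.p6 from 250 bases before to 50 bases after the start.
Cox7a2, chr9:79759804-79760103, minus strand: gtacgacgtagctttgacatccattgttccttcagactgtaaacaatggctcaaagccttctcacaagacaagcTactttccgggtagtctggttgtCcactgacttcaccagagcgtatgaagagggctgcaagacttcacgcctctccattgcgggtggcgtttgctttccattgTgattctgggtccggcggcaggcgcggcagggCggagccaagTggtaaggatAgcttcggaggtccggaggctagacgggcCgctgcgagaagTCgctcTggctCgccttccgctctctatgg
Cox7a1, chr7:30183921-30184220, plus strand: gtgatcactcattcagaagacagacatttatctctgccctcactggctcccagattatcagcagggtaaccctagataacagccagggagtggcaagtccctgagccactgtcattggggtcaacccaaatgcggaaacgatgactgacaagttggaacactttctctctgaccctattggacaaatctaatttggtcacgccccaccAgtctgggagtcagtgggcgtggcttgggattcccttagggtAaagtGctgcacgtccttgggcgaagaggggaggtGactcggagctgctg
Cox8a, chr19:7217567-7217866, minus strand: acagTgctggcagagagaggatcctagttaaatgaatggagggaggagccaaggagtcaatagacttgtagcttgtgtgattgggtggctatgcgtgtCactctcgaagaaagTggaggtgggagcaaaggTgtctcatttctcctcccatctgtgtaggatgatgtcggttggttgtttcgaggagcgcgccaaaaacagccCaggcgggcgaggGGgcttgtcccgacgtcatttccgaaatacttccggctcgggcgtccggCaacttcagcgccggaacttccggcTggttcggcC
Cox8b, chr7:140900397-140900696, minus strand: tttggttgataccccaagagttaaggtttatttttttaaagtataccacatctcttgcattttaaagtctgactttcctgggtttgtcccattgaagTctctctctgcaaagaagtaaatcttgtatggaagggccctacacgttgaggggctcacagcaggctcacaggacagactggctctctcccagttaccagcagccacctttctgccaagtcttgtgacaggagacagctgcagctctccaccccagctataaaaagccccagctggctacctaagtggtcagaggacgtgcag
Cox7a2 has 11 marked bases and Cox7a1 has 4. Cox8a has 10 and Cox8b has 1. The 300 bases of Cox7a2 held 30, 37, 6, 15, 3 and 3 break ends from negative M1 to high M2, and those of Cox7a1 10, 4, 3, 4, 1 and 0. Those of Cox8a held 22, 16, 7, 7, 1 and 1, and those of Cox8b 2, 1, 3, 2, 0 and 0. No break end was recorded in the Cox8b promoter in the high libraries, where Cox8a held 1 and 1. A count of 0 allows up to 3 by counting error. At this depth the Cox8b promoter thus cannot be set below that of Cox8a in the high gate.

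The other pairs were not alike. Cox6b1 and the testis isoform Cox6b2 had 1.80 ± 0.419 and 1.77 ± 0.491 at their starts, and Cox6b1 was higher in 2 of 6 libraries. Over whole windows Cox6b2, which overlaps Fam71e2, was denser in all 6 libraries, with 1.78 ± 0.313 against 0.864 ± 0.140. Where a start was missing, whole windows were compared: Cox4i1 had 1.02 ± 0.205 and Cox4i2, known from lung, 0.514 ± 0.0931, with Cox4i1 higher in 6 of 6 libraries. The Cox4i1 window overlaps Emc8 and Gm27021, and that of Cox4i2 overlaps Bcl2l1. Cox6a1 had 1.34 ± 0.282 and the muscle isoform Cox6a2 1.09 ± 0.400, which overlaps Itgad. Ndufa4, now counted as a subunit of cytochrome c oxidase despite its name, had 0.818 ± 0.180, less than its hypoxia-induced relative Ndufa4l2 at 1.80 ± 0.598 in 6 of 6 libraries. The Ndufa4 window overlaps Phf14. The Ndufa4l2 window overlaps Shmt2 and Stac3, and which gene its break ends belong to cannot be told apart. Cox8c, a testis isoform that overlaps no gene, had a window density of 0.741 ± 0.301. Over the 4 restricted isoforms with a known start the median was 0.581, against 2.52 for the other 63 chain genes. Genes of like length had 0.680 for the former and 1.33 for the latter. Of the 4 isoforms 2 lay above genes of like length, as did 60 of the 63 others. Cox6b2 and Cox8b lay above 91.1% and 69.5% of such genes, and Cox7a1 and Cox7b2 above 40.3% and 6.73%.

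**Figure D3:**
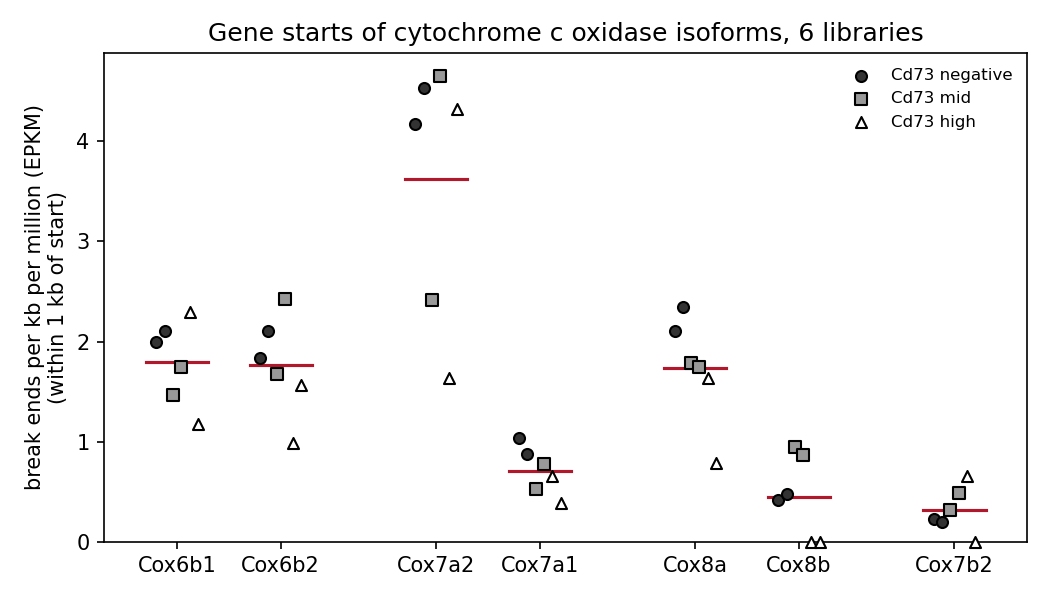
Break end density (EPKM) within 1 kb of the start (vertical axis) in each of 6 libraries for 3 pairs of cytochrome c oxidase isoforms and Cox7b2; symbols give the Cd73 gate and red bars the mean. Cox7a2 lies above Cox7a1 and Cox8a above Cox8b in every library, while Cox6b1 and Cox6b2 overlap.

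Promoters of chain genes were searched on both strands for motifs of factors known for control of mitochondrial genes. The motif of nuclear respiratory factor 1, GCGCANGCG, occurred in 19 of 67 promoters of 300 bases (28.4%), against 8.999% of 16390 other promoters. The ETS family motif CCGGAAG, bound by GABP among others, occurred in 16 (23.9%), against 12.2%, and the YY1 motif AAGATGGC in 9 (13.4%), against 3.17%. The general promoter motifs were closer to the background: GGGCGG, bound by SP1, occurred in 27 (40.3%), against 47.4%, and CCAAT in 28 (41.8%), against 39.1%. Among the other genes in the top 10th of start density, 1631 promoters, the shares were 17.5% for GCGCANGCG, 23.9% for CCGGAAG, 5.58% for AAGATGGC, 73.4% for GGGCGG and 41.8% for CCAAT. None of the first 3 motifs was found in 30 of the 67. The mitochondrial ribosomal protein genes, 69 with a promoter, had shares of 23.2%, 34.8% and 17.4% for these 3 motifs.

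Matches were unevenly placed among the complexes. The motif GCGCANGCG was in 6 of 15 promoters of complex V, 8 of 32 of complex I and 1 of 12 of complex IV, and occurred 3 times each in Sdha, Cox6a1, Uqcrc1 and Ndufb4, the last named after its values were seen. In Sdha the matches begin 98, 55 and 10 bases before the start. Of the 9 YY1 matches, 7 were in complex I, among them Ndufa3, Ndufa9, Ndufb8, Ndufs4 and Ndufs7. Of the shown promoters only Cox8a holds the ETS motif, as CTTCCGG on the other strand at 2 places, and those of Cox7a2, Cox7a1 and Cox8b hold none of the 3. Within the chain genes the median start density was 2.22 with GCGCANGCG and 2.49 without, where other genes had 2.55 with and 1.25 without. The chain promoters held a median of 19 CpG dinucleotides against 14 in other genes, at a GC content of 57.3% against 56.7%.

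Across the gates, start density was highest on average in negative cells. The median over chain gene starts was 2.68 and 3.34 in the negative libraries, 1.996 and 2.71 in the mid libraries, and 1.97 and 1.96 in the high libraries. Other genes had 1.46 and 1.75, 1.16 and 1.55, and 0.985 and 1.18 in the same order, and their gates fell in the same order on average. Interiors of chain genes had 0.570 and 0.540, 0.487 and 0.474, and 0.491 and 0.505. Within each library the start of a chain gene was denser than the rest of its window by a median of 3.92, 4.68, 3.39, 4.67, 4.56 and 3.49 from negative M1 to high M2, against 2.43, 2.69, 2.22, 2.59, 2.28 and 2.16 for other genes.

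The ends of the sort, Cd73 high and Cd73 negative, were compared first. Of 84 chain genes, 82 had enough break ends to be tested. Ndufb4b and Ndufb4c, small near-identical copies of Ndufb4, did not. In edgeR's quasi-likelihood test over 18484 genes, 0 of 82 passed a Benjamini-Hochberg adjusted p of 0.05, where 0.00541% of all genes did: the single gene was Cdk5rap2, not a chain gene. Unadjusted, 10 chain genes (12.2%) had a p under 0.05 in edgeR, against 9.12% of all genes, and 3 (3.66%) in DESeq2, against 4.39%. DESeq2 also called 0 of them. The smallest adjusted p of a chain gene was 0.337 in edgeR.

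Most fold changes lay on the lower side. The log2 fold change of high over negative was below 0 in 63 of 82 chain genes, against 9492 of all 18484 genes tested. In 55 of the 82 it was below that of genes of like length. The median was -0.26, against -0.00999 over all genes tested. Genes of like length had -0.17, and the median of the gene-by-gene difference from them was -0.13. Both high libraries lay below both negative ones in 36 of 82 (43.9%), against 22.1% of all genes, and above in 5 (6.10%), against 21.2%. Complex V had 17 of 17 below 0, with a median of -0.35, and 13 of 17 with each position counted once. Complex I had 27 of 36 below 0 (-0.20), complex III 5 of 8 (-0.22), complex II 3 of 4 (-0.31) and complex IV 11 of 17 (-0.16), the last close to the -0.23 of its length groups. With each position counted once, 50 of 82 were below 0 with a median of -0.0817, and the difference from like length was -0.0843. With all libraries thinned to equal depth 48 of the 63 chain genes that could be tested were below 0, with a median of -0.28 and a difference from like length of -0.0926. That difference was -0.0826 without high M1, and -0.0729 against genes of like length and like break density.

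**Figure D4:**
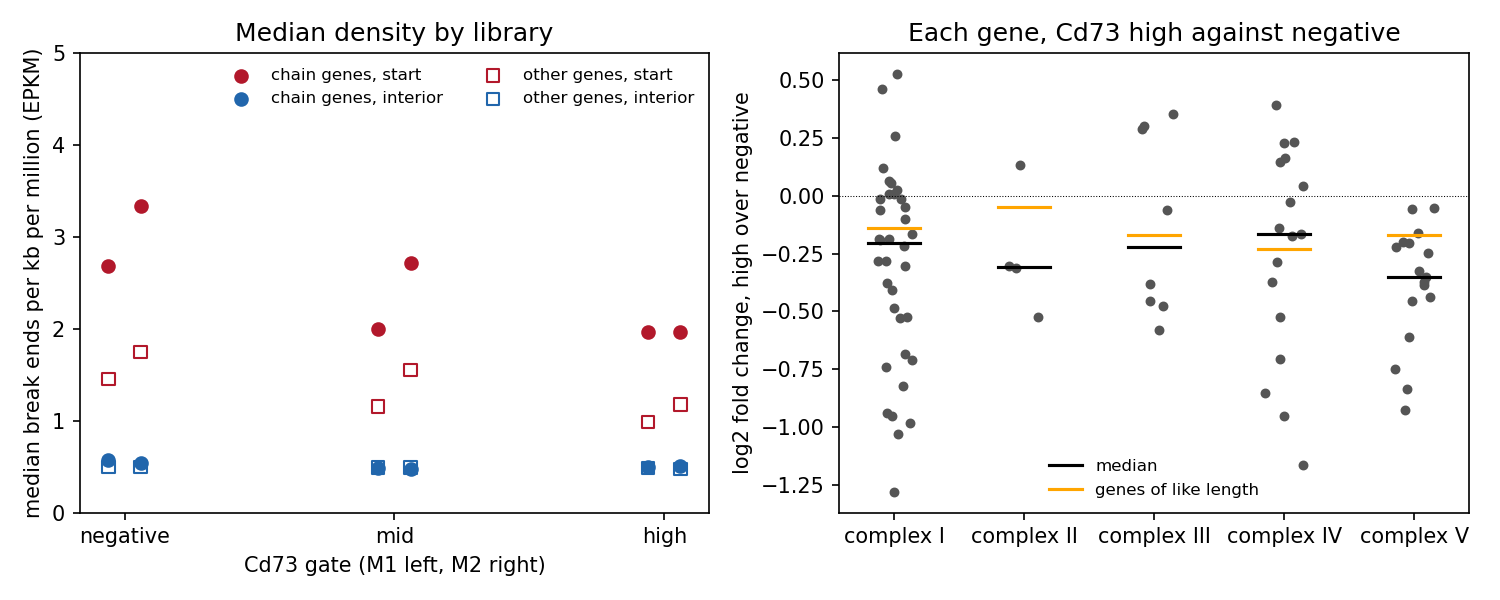
Left, median density (EPKM) in each library by Cd73 gate, at starts (red) and interiors (blue), for chain genes (filled circles) and other genes (open squares). Right, log2 fold change of Cd73 high over negative for each chain gene, with the median of each complex (black) and of genes of like length (orange). All 17 genes of complex V lie below 0, and no gene passed the edgeR test.

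The named genes with the smallest p were of complex I. Ndufa4l2 had 277 and 316 break ends in the negative libraries, 71 and 109 in the mid libraries, and 13 and 20 in the high libraries, and its window density by gate was 2.35 ± 0.277, 1.82 ± 0.444 and 1.23 ± 0.514 (SD, n = 2). Its log2 fold change was -0.82 (SE 0.27, adjusted p = 0.337, edgeR). Ndufs5, an accessory subunit that overlaps no gene, had 92 and 105, 25 and 42, and 6 and 2 break ends, or 1.03 ± 0.122, 0.896 ± 0.273 and 0.369 ± 0.224, with -1.28 (SE 0.49, adjusted p = 0.388, edgeR). Within 1 kb of its start the high libraries held 3 and 0. Ndufb8, in the membrane arm, had 126 and 122, 29 and 55, and 8 and 4 break ends, with -1.03 (SE 0.42, adjusted p = 0.437, edgeR). These genes were picked among those with both high libraries below both negative ones, so that separation is no result. High M2 of Ndufa4l2 lay above mid M1, and none of the differences passed the test. Ndufa4l2 had -0.12 with each position counted once, -0.40 without high M1 and -1.32 without high M2. Ndufs5 had -0.82 with each position counted once, -2.12 without high M1 and -0.84 without high M2, and Ndufb8 had -0.59 over gene starts alone.

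Ndufb9 and Ndufb2, also of the membrane arm, had log2 fold changes of -0.98 (SE 0.37) and -0.94 (SE 0.42). Ndufb9 had -0.47 with each position counted once, and Ndufb2 had -0.57 without high M1. In complex V, Atp5g3 had 121 and 110 break ends in the negative libraries, 28 and 30 in the mid libraries, and 7 and 5 in the high libraries. Its density was 1.497 ± 0.0630, 0.972 ± 0.00836 and 0.708 ± 0.0786 (SD, n = 2), with -0.92 for high over negative (SE 0.42, adjusted p = 0.500, edgeR). Atp5g3 was named as a c subunit gene and also among those apart in mid against negative, so separation of its gates is no result. Of the genes on the higher side, Ndufa9 had 0.46 (SE 0.27), Uqcrc1 0.30 (SE 0.29), Ndufv1 0.26, Cox7b2 0.23 and Sdha 0.13 (SE 0.20), each with an adjusted p over 0.05 in edgeR. These values moved with single libraries: without high M1, Ndufa9 had 0.18, Uqcrc1 0.52 and Cox7b2 0.0907, and without high M2, Uqcrc1 had 0.0705, Ndufv1 0.15 and Sdha 0.0775. Without negative M2, Cox7b2 had 0.13. Over gene starts alone Ndufa9 had 1.25 and Sdha 0.73, and with each position counted once Ndufv1 had 0.61.

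Cd73 mid was next set against Cd73 negative. In edgeR 0 of 82 chain genes passed, as did 0% of the 18484 genes. Unadjusted, 6 (7.32%) had a p under 0.05 in edgeR, against 3.44% of all genes, and 0 in DESeq2, against 0.362%. DESeq2 called 0. The log2 fold change was below 0 in 64 of 82, against 9340 of all 18484 genes, and below that of like length in 56. Its median was -0.16 against -0.00235 over all genes, and -0.12 relative to like length. Groups were apart downwards in 31 of 82 (37.8%), against 16.6% of all genes, and upwards in 5 (6.10%), against 14.5%. With positions counted once the difference from like length was -0.0493, and with libraries thinned to equal depth it was -0.0362.

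The genes with the smallest p here belonged to complexes IV and V. Cox7c, a small subunit of cytochrome c oxidase, had 94 and 108 break ends in the negative and 20 and 27 in the mid libraries, with -0.67 (SE 0.28, adjusted p = 0.998, edgeR). Atp5g3 had -0.56, Atp5j2 -0.52, Cox5a -0.36 and Atp5c1 -0.31. On the other side Cox8b had 20 and 26 against 14 and 16 break ends, 0.81 (SE 0.40, adjusted p = 0.998, edgeR), and Ndufs7, an iron-sulfur subunit, had 0.21, or 0.0940 without negative M1, 0.35 without negative M2 and 0.72 with libraries thinned to equal depth. Atp5j2 had -0.32 without mid M1 and -0.79 without mid M2. Atp5c1 had -0.19 without mid M2 and -0.0544 with libraries thinned to equal depth. Cox5a had 0.22 with libraries thinned to equal depth, which turned its direction.

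Cd73 high against mid completed the set; the 3 comparisons share libraries, so their values are not independent. In edgeR 0 of 82 chain genes passed, as did 0% of all genes. Unadjusted, 4 (4.88%) had a p under 0.05 in edgeR, against 4.25% of all genes, and 0 in DESeq2, against 1.47%. DESeq2 called 0. Of the 82, 47 were below 0, against 9187 of all 18484 genes, and 43 were below genes of like length. The median was -0.10, and the difference from like length was -0.0325. This difference was 0.0288 without high M1 and 0.0155 over gene bodies alone, so that its sign was not kept. Groups were apart downwards in 28 (34.1%), against 16.9% of all genes, and upwards in 12 (14.6%), against 16.7%. Ndufs5 had -1.15 (SE 0.52) and Atp5l, subunit g, -0.74 (SE 0.35). Cox8b had -1.97 (SE 0.90), from 14 and 16 break ends to 1 and 1. Ndufs5 had -1.99 without high M1 and -0.71 without high M2, and Atp5l had -1.69 over gene starts alone. On the higher side were Ndufa3 with 0.68 (0.25 without high M1), Uqcrc1 with 0.55 (0.32 without high M2 and 0.36 without mid M1), Ndufv1 with 0.47 (0.11 over gene bodies alone) and Sdha with 0.32 (0.17 without mid M2).

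Other nuclear genes of mitochondrial function had similar starts. The median start density was 2.96 for 41 assembly factors, which insert cofactors and join subunits, 2.95 for 14 genes of the citric acid cycle and pyruvate dehydrogenase, and 3.06 for 17 genes of carriers, ubiquinone synthesis and electron entry. It was 2.99 for 69 mitochondrial ribosomal protein genes and 2.81 for 17 regulators of mitochondrial genes. The chain genes, at 2.44, or 2.52 without restricted isoforms, were lower than each of these lists, a difference that was not tested. The lists differ in gene length. Genes of like length had 1.33 for the chain and ribosomal protein genes and 1.44 for the assembly factors. They had 1.56 for the carrier genes and 1.73 for the citric acid cycle genes and regulators. The median start lay above 75.1% of genes of like length in chain genes, and above 77.9% to 84.7% in the other lists. Interiors lay on either side of genes of like length: 0.468 against 0.517 in the assembly factors and 0.474 against 0.539 in the ribosomal protein genes, but 0.592 against 0.499 in the citric acid cycle genes and 0.594 against 0.500 in the regulators. The carrier genes had 0.520 against 0.499.

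In high against negative, 0 genes of these lists passed in edgeR. Of all 18484 genes tested, 9492 had a log2 fold change below 0. It was below 0 in 58 of 78 mitochondrial ribosomal genes (-0.33 in the median) and 35 of 47 assembly factors (-0.20). The same held for 14 of 20 carrier and electron entry genes (-0.13), 11 of 18 regulators (-0.10) and 10 of 18 citric acid cycle genes (-0.0450). Over the autosomal genes of each list, the median difference from genes of like length was -0.17, -0.0685, -0.0270, -0.0523 and -0.0333 in the same order. Of 7 chain genes outside the rule, among them Cyc1 and Cycs for the cytochromes c1 and c, 6 were below 0, with a median of -0.26. Over the autosomal ones the difference from like length was -0.0485. At an unadjusted p under 0.05, which 9.12% of all genes had in edgeR, there were 10 ribosomal genes, 5 assembly factors, 1 carrier gene, 1 regulator, 3 citric acid cycle genes and 0 of the 7.

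Marker lists of other cells differed in how they lay between high and negative cells, and 0 markers passed in edgeR. All 7 lymphocyte marker genes had a higher fitted level in high than in negative cells (median of the log2 fold changes 0.49), and 5 of 7 were apart upwards, against 21.2% of all genes. Unadjusted, 2 of the 7 had a p under 0.05 in edgeR, as did 4 of 12 enterocyte markers, against 9.12% of all genes. It was 1 each of the tuft, goblet, and stromal and endothelial markers, and 0 in the other lists. Enterocyte markers had a log2 fold change below 0 in 8 of 12, with a median of -0.20. The log2 fold change was above 0 in 4 of 5 tuft (median 0.34), 5 of 6 goblet (0.0474), 3 of 5 stem (0.0169), 3 of 6 enteroendocrine (-0.0505), 3 of 6 stromal and endothelial (-0.00725) and 2 of the 3 tested Paneth cell markers (0.18). The summed windows of the lymphocyte markers held 77.9 and 62.2 break ends per 1000000 in the negative libraries, 72.9 and 66.3 in the mid libraries, and 91.9 and 81.7 in the high libraries, and none of the 7 was at 0 in any library. Summed enterocyte markers held 290 and 282, 253 and 269, and 244 and 230. Mitochondrial DNA held 89.4 and 55.4 break ends per 1000000 in the negative libraries, 110 and 113 in the mid libraries, and 186 and 327 in the high libraries. The part of cell content in the differences between gates was not tested.

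Repeated counts at a single position also differed between gates. In the windows of chain genes, the share of break ends at positions with several of them was 42.3% and 45.5% in the negative libraries, 20.6% and 30.3% in the mid libraries, and 11.8% and 10.4% in the high libraries. With all libraries thinned to the depth of high M2 these shares were 13.5%, 15.1%, 9.07%, 14.2%, 10.96% and 10.4%. The largest count at any position was 49 in negative M2, in Ndufa8, named for that count after it was seen. No position of a chain gene exceeded 100. Another 18 annotated pseudogenes carry symbols of this family, and break ends of near-identical copies such as Ndufb4b and Ndufb4c are uncertain.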

How the data were processed

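The deposited counts are whole numbers of break ends at each listed base, 1 file for each library, not normalized and with no strand. Per the submitters' processing notes, BWA and GRCm38 were used. The BWA version, read filters and whether a count is of molecules or reads: not given in the sources used here, so precision covers counting error only. The members and gene lists were chosen with earlier results of these data known. The 4 human libraries were not used here.

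Counts were summed over gene bodies with 1 kb on each side (RefSeq, GRCm38.p6) and tested by the quasi-likelihood method of edgeR 4.0.16 under R 4.3.3, with TMM scaling, its filter on low counts (filterByExpr), all 6 libraries in a shared fit and an adjusted p under 0.05 over all 18484 genes tested. DESeq2 1.42.0 was an alternative. Densities are break ends per kb per 1000000 break ends of the main chromosomes. Genes of like length are the non-member autosomal genes in the same of 10 equal length groups; their median is used. Start sites and promoter sequences came from RefSeq's table, which gave 67 of 84 members. Interiors were taken where the gene end lay at least 4 kb from that start. Groups are apart where all libraries of a gate lie beyond all of the other. Single values of 2 against 2 libraries cannot give an exact permutation p below 0.333 and were not tested.

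Named genes were, in each comparison, the 5 with the smallest p in each direction among those apart, in each complex the 3 densest and 2 sparsest windows, the listed isoform pairs and the c subunit genes. In simulated counts for high against negative (18484 genes), changes of 1.5, 2, 3 and 4-fold were placed in 50 genes each. They were found for 16%, 56%, 92% and 82%, and 7 unchanged genes were called. The changed genes were drawn at random from all genes tested, and every gene had the same dispersion (0.00662). Chain genes had medians of 11 and 10 break ends in the high libraries, against 19 and 15 for other genes. Shares for chain genes may thus be lower. Alternatives were library size scaling, no filter, positions counted once, positions over 100 left out, thinning, gene bodies or starts alone, other length groups, genes without overlap, leaving out each library, and a replicate block. Summaries and figures were made with pandas 2.3.3, numpy 2.4.6 and matplotlib 3.10.9 in Python 3.11.15.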

Additional observations from a re-analysis of the deposited data

How the results depend on the processing

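In every alternative run, 0 chain genes were called. The median log2 fold change relative to genes of like length, high against negative (-0.13), was -0.0843 with positions counted once, -0.0926 with libraries thinned, -0.0729 against genes of like length and density, -0.21 in genes without overlap, and -0.19 to -0.0826 with a library left out (lowest in size without high M1). For mid against negative (-0.12) it was -0.0493 with positions counted once, -0.0362 thinned and -0.0741 over gene bodies, and -0.14 to -0.0818 with a library left out. For high against mid (-0.0325) it was 0.0155 over gene bodies, -0.10 at starts, 0.0149 against genes of like length and density, -0.0990 without overlap, and -0.0871 (without high M2) to 0.0288 (without high M1) with a library left out, or -0.0678 without mid M2. The density ratio to like length (1.22, mean over libraries) was 1.15 with positions counted once, 1.26 thinned, 1.16 over gene bodies and 1.495 without overlap; left-out libraries gave 1.20 to 1.24. The start ratio (4.12) was 3.30 with positions counted once, and 4.01 to 4.26 with a library left out. For 17 chain genes without a known start it used both gene ends; over known starts, an alternative chosen after seeing the data, it was 4.81. Of the named genes, Cox5a (mid against negative) turned to 0.22 thinned and Cox7a2 (high against mid, 0.30) to -0.0607 at starts. Causes were not tested.

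With a replicate block the 3 medians were -0.13, -0.12 and -0.0451, 0 chain genes were called, and 3, 0 and 0 of all genes. In mid against negative, 11 chain genes (13.4%) had an unadjusted p under 0.05 in edgeR with the block, against 8.67% of all genes. Without it there were 6 (7.32%), against 3.44%. The smallest adjusted p of a chain gene there was 0.462 with the block in edgeR. Over 18484 genes, the M1 minus M2 difference of negative correlated at 0.351 with that of mid and -0.052 with that of high. Mid and high correlated at -0.0497. Counts in the high libraries are too low for these values to decide on pairing. The labels state no pairs, so the main fit used none. At 10 or 11 break ends a gene, the high libraries limit single genes most.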
